A study of Mus musculus with 4 samples.

Results

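Transcripts of 10 inflammatory and regulatory cytokine genes were examined in blood monocytes of mice with and without RBP-J, the DNA-binding factor through which Notch receptors act on their target genes. The genes were *Tnf*, *Il1b*, *Il1rn*, *Il6*, *Il10*, *Il15*, *Il18*, *Tgfb1*, *Tnfsf10* and *Tnfsf13b*. They were chosen by name, as the 10 entries of the deposited expression table with these symbols, out of 23995 gene symbols in all. The study sorted monocytes from blood and sequenced 4 libraries, 1 for each genotype and monocyte subset. Ly6Chi and Ly6Clo monocytes came from *Rbpj*+/+*Lyz2*cre/cre control mice and from *Rbpj*fl/fl*Lyz2*cre/cre mice, called RBP-J-deficient. The titles of the control libraries say WT, their genotype label says Lyz2-Cre, and the genotype of the study's methods is used here. Both genotypes therefore carry Cre inserted at *Lyz2*, a promoter active in monocytes, macrophages and neutrophils, and the *Lyz2* locus itself is altered in the controls too. The mice were young adults matched for age and sex, and the labels name no treatment. The number of mice behind each library is not given in the sources used here. With 1 library per group, no difference below has a replicate check, no test of the groups was made, and the order of neighbouring levels cannot be judged against a spread.

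Circulating mouse monocytes fall into Ly6Chi cells, which enter inflamed tissue, and Ly6Clo cells, which patrol the vessel wall and arise largely from the former. Monocytes are a major source of the IL-1 family and of TNF. IL-1β and IL-18 are made as inactive precursors and cut by caspase-1 in the inflammasome, the IL-1 receptor antagonist occupies the IL-1 receptor without signalling, and TNF, TRAIL and BAFF are ligands of the TNF superfamily. IL-15 sustains NK and memory T cells, whereas TGF-β1 and IL-10 restrain inflammation. Levels are given as FPKM, a measure of the sequenced fragments relative to transcript length and to all fragments mapped in the library, which takes out transcript length and therefore allows levels of different genes to be set side by side. Differences are given as the log2 ratio of (FPKM + 1), on which 1 is a 2-fold difference. The added 1 understates the difference of genes with low FPKM.

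The targeted gene, *Rbpj*, had an FPKM of 8.30 in control Ly6Clo, 2.43 in RBP-J-deficient Ly6Clo, 14.4 in control Ly6Chi and 2.85 in RBP-J-deficient Ly6Chi monocytes, a log2 ratio of -1.44 and -2.0 in the respective subsets. The FPKM is for the whole gene and does not resolve the deleted exons. In the same order of libraries, which is kept throughout, the 5 monocyte markers summed to 2309, 2599, 1836 and 1946 FPKM. *Cd68* made up 1713, 2108, 1173 and 1391 of these. Between the Ly6Clo libraries *Csf1r* was at least 2-fold lower without RBP-J, from 406.7 to 157.8 FPKM. *Lyz2*, the locus that carries Cre, was at least 2-fold higher, from 52.0 to 133.9 FPKM, and the other 3 were neither. The 5 Ly6Chi markers summed to 107.7, 643.0, 4368 and 3767 FPKM, with 4 of 5 at least 2-fold higher in RBP-J-deficient than in control Ly6Clo cells. The 8 Ly6Clo markers summed to 3387, 2549, 672.6 and 1004 FPKM. Between the same 2 Ly6Clo libraries 3 of these 8, *Nr4a1*, *Itgal* and *Ace*, were at least 2-fold lower without RBP-J, and 1, *Cd36*, was at least 2-fold higher. Of all genes that reached an FPKM of 1 in any library, 8.97% were at least 2-fold higher and 11.1% at least 2-fold lower in that comparison. *Nr4a1* went from 618.2 to 65.6 FPKM there, in 1 library each. By flow cytometry and qPCR the study found Nr4a1 alike in Ly6Clo monocytes of both genotypes. The reason for this difference was not tested. Between the 2 Ly6Chi libraries 3 of the 8 Ly6Clo markers, *Treml4*, *Fcgr4* and *Cd36*, were at least 2-fold higher without RBP-J and 0 were 2-fold lower. The shares of all expressed genes in that comparison were 2.64% and 4.56%. Ly6C set the sort, so *Ly6c2* is no independent check of it. Summed markers of T and NK cells did not exceed 2.32 FPKM, and those of dendritic cells did not exceed 13.3 FPKM. The 6 measured neutrophil markers summed to 6.30, 13.7, 41.3 and 38 FPKM. *Retnlg* made up 4.33, 12.2, 35.1 and 24.4 of these, *Camp* and *Ngp* were at 5.52 and 4.87 in RBP-J-deficient Ly6Chi cells and at 0 in the control Ly6Chi library, and *Mpo* was at 0 in all 4. Platelet markers summed to 125.5, 124.1, 350.3 and 293.3 FPKM. B cell markers summed to 68.0, 102.1, 26.2 and 47.2 FPKM, of which *Cd79b* made up 41.9, 100.2, 23.7 and 43.7, and *Pax5* was at 0 in 3 of 4 libraries. The part of other cells in the cytokine values was not tested. FPKM summed over all genes to between 711510 and 885652 in a library, between 8985 and 9394 genes had an FPKM of at least 1, and the depth is unknown because no counts were used here. *Actb* was at 0 in the RBP-J-deficient library of each subset, where the status entry of the deposited table, HIDATA, marks an estimate that was not made.

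Of the 10 cytokines, 8 had an FPKM above 0 and 7 reached 1 in at least 1 library, which is the rule for an expressed gene here and which 10240 genes met. The most abundant was *Il1b* in every library. On the log2(FPKM + 1) scale *Il1b* and *Il18* had the widest ranges across the libraries, *Il6* and *Il10* were listed at 0 in all 4, and *Tnfsf10* stayed below an FPKM of 1 throughout. Summed over the 10 genes, the cytokines reached 233.0 FPKM in control Ly6Clo, 450.8 in RBP-J-deficient Ly6Clo, 192.8 in control Ly6Chi and 233.3 in RBP-J-deficient Ly6Chi monocytes. In RNA of bulk cells, more cells making a transcript and more transcript per cell cannot be told apart. Without *Il1b* the sums were 67.4, 122.3, 120.2 and 139.8. *Il1b* alone thus made up 71.1% and 72.9% of the sum in the Ly6Clo libraries and 37.7% and 40.1% in the Ly6Chi libraries. In control Ly6Clo cells *Tnfsf13b* and *Il18* followed *Il1b*, and in the other 3 libraries *Il18* came before *Tnfsf13b*.

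**Figure D1:**
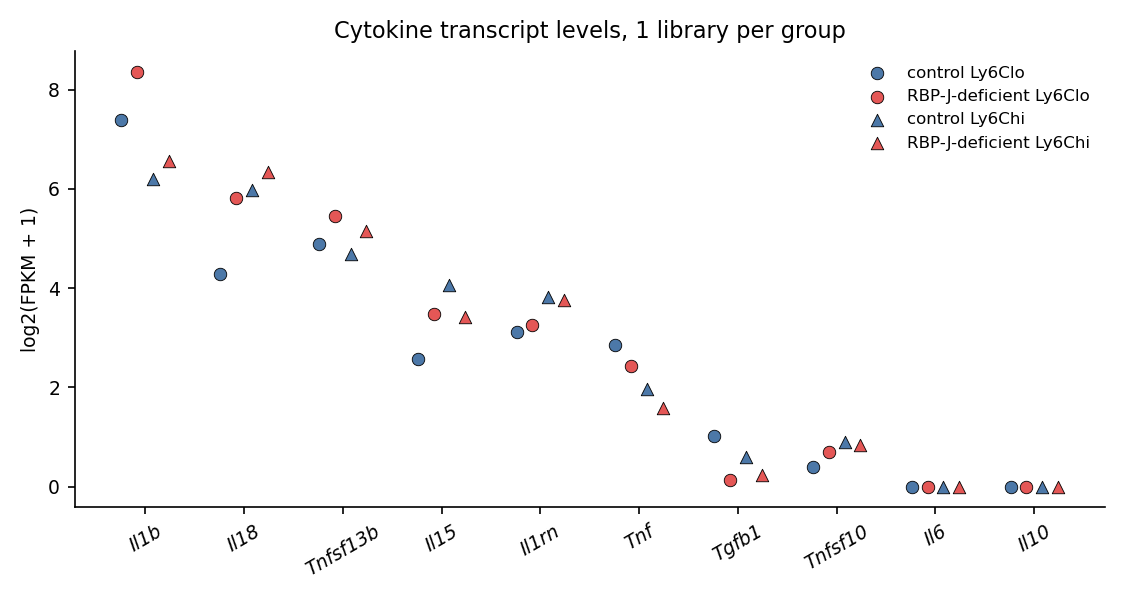
Level of each cytokine transcript in the 4 libraries, as log2(FPKM + 1) on the vertical axis; each point is 1 library, circles are Ly6Clo and triangles Ly6Chi monocytes, blue is control and red RBP-J-deficient. *Il1b* is highest in every library, up to 328.6 FPKM in RBP-J-deficient Ly6Clo cells, and *Il6* and *Il10* lie at 0.

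In Ly6Clo monocytes, *Il18* was the cytokine with the largest genotype difference, 2.90-fold higher on the (FPKM + 1) scale in the RBP-J-deficient library. *Il1b* was 1.98-fold and *Il15* 1.87-fold higher, both under the 2-fold line. *Tgfb1* and *Tnf* were lower, at 0.546 and 0.741 of the control value. In Ly6Chi monocytes no cytokine lay 2-fold apart, and *Il15* had the largest difference, at 0.638 of control. Counted at 2-fold, 1 of the 7 expressed cytokines was higher in RBP-J-deficient Ly6Clo cells and none was lower, against 8.97% and 11.1% of all expressed genes. The corresponding counts in Ly6Chi cells were 0 higher and 0 lower, against 2.64% and 4.56%. The median log2 ratio of the 7 expressed cytokines was 0.56 in Ly6Clo and -0.06 in Ly6Chi cells, beside 0.02 and 0.00 for all expressed genes. With rescaling of the libraries the Ly6Clo median was 0.27, beside -0.22 for all expressed genes. With subtraction of a GC trend it was 0.18, beside -0.05 for all expressed genes. The Ly6Chi median was -0.16 and -0.22 in these settings. For each of the 8 cytokines with a value, the absolute log2 ratio was larger in Ly6Clo than in Ly6Chi monocytes, but this held for 5 of 8 with rescaling of the libraries, where *Il15*, *Il1rn* and *Tnfsf13b* turned, for 6 of 8 with subtraction of a GC trend, where *Tnfsf10* and *Tnfsf13b* turned, and for 7 of 8 with 0.1 added in place of 1, where *Tnf* turned. *Il15*, *Il1rn* and *Tnfsf10* had opposite signs in the subsets, although the Ly6Clo sign of *Il1rn* turned with rescaling of the libraries and with subtraction of a GC trend, and that of *Tnfsf10* turned with the latter. The other 5 kept 1 direction in both subsets: *Il1b*, *Il18* and *Tnfsf13b* were higher, *Tnf* and *Tgfb1* lower. *Tgfb1* reached an FPKM of 1 only in control Ly6Clo cells, so the rule for an expressed gene favoured its lower value elsewhere. The shares of all expressed genes with a larger difference in Ly6Clo cells, or with 1 direction in both subsets, are not given here. By the 2-fold shares above, expressed genes in general also differed more between genotypes in Ly6Clo than in Ly6Chi cells.

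The libraries differed in 2 general ways that touch these ratios. Rescaling each library to a common sum shifts every log2 ratio of well expressed genes by -0.30 in Ly6Clo and -0.10 in Ly6Chi cells. The sums hold *Actb* at 27260 FPKM in control Ly6Clo and 22795 FPKM in control Ly6Chi cells. In both RBP-J-deficient libraries they hold it at 0, without an estimate, so all rescaled values rest on sums uneven between genotypes. The size of this effect was not tested. Between genotypes the log2 ratio was also related to the GC content of the transcript across 9722 expressed genes, with a Spearman correlation of -0.35 in Ly6Clo and -0.28 in Ly6Chi cells, genes of a library not being independent. *Il18*, *Il1b*, *Tnfsf13b* and *Il1rn* have transcripts of 45.1%, 46.3%, 42.9% and 41.6% GC, below the median of 49.3%, and ratios after subtraction of the GC trend are therefore given with the main ones. The part of either in the differences was not tested further.

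**Figure D2:**
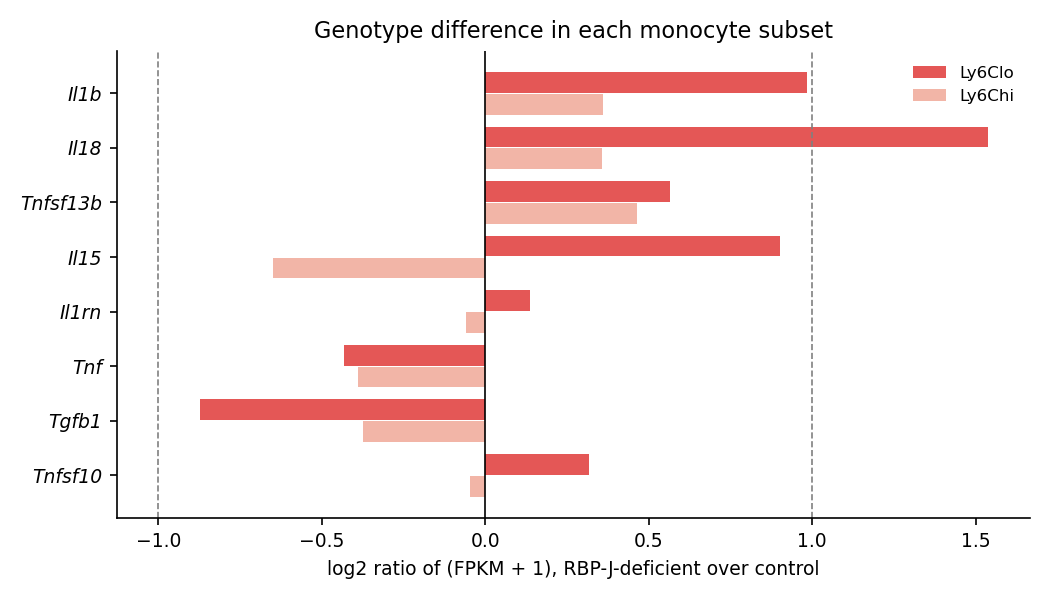
Genotype log2 ratio of (FPKM + 1), RBP-J-deficient to control, for the 8 cytokines above 0, with dark bars for Ly6Clo and light bars for Ly6Chi monocytes; 1 library stands behind each side of a ratio, there are no error bars, and dashed lines mark 2-fold. *Il18* in Ly6Clo cells, at 1.54, is the bar past a dashed line, and *Il15* points up in Ly6Clo and down in Ly6Chi cells; the upward Ly6Clo bars of *Il1rn* and *Tnfsf10* turn to -0.28 and -0.07 after subtraction of the GC trend, and that of *Il1rn* to -0.14 after rescaling.

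*Il1b*, at chr2:129364570-129371139 on the minus strand of GRCm38 (mm10), encodes IL-1β, the inflammasome-processed fever and inflammation cytokine. Its FPKM was 165.6 in control Ly6Clo, 328.6 in RBP-J-deficient Ly6Clo, 72.6 in control Ly6Chi and 93.5 in RBP-J-deficient Ly6Chi monocytes. Both Ly6Clo libraries lay above both Ly6Chi libraries, and within each subset the RBP-J-deficient library was the higher. The level stood at percentile 93.5, 95.5, 86.2 and 88.6 of the expressed genes of its library. The log2 ratio between genotypes was 0.98 in Ly6Clo and 0.36 in Ly6Chi cells, and 0.72 and 0.26 after subtraction of the GC trend. The Ly6Chi over Ly6Clo log2 ratio was -1.18 among control and -1.80 among RBP-J-deficient cells, so the subset difference was wider without RBP-J. *Il1b* had the widest range of log2(FPKM + 1) among the 6 cytokines that reached an FPKM of 1 in each of the 4 libraries. Among 8187 genes at that level, the profiles over the 4 libraries nearest to its own were those of *Calcrl*, a receptor for calcitonin-family peptides, of *Stk38l*, a kinase, and of *Rbbp7*, a histone-binding protein, at Euclidean distances of 0.17, 0.18 and 0.20 between centred log2(FPKM + 1) values. With 4 libraries these distances are descriptions.

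*Il1rn*, at chr2:24336853-24351494 on the plus strand, encodes the IL-1 receptor antagonist, the natural counterpart of IL-1β. Its FPKM was 7.71, 8.58, 13.1 and 12.5 in the 4 libraries. The Ly6Chi libraries were both above the Ly6Clo ones, the reverse of *Il1b*, and the genotypes lay close together in each subset. The genotype log2 ratio was 0.14 in Ly6Clo and -0.06 in Ly6Chi cells. The first of these became -0.14 with rescaling and -0.28 with the GC trend subtracted, so no direction is given for *Il1rn* in Ly6Clo cells. The Ly6Chi over Ly6Clo log2 ratio was 0.69 among control and 0.50 among RBP-J-deficient cells.

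The agonist to antagonist ratio, *Il1b* FPKM over *Il1rn* FPKM, does not depend on how a library is scaled. It was 21.5 in control Ly6Clo, 38.3 in RBP-J-deficient Ly6Clo, 5.57 in control Ly6Chi and 7.48 in RBP-J-deficient Ly6Chi monocytes. Transcript of the agonist thus exceeded that of the antagonist in all 4 libraries, most in RBP-J-deficient Ly6Clo cells and least in control Ly6Chi cells. With 1 added to each FPKM the ratios were 19.1, 34.4, 5.24 and 7.0. A ratio of transcripts shows that the genes differed unequally and gives no amount of secreted protein.

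**Figure D3:**
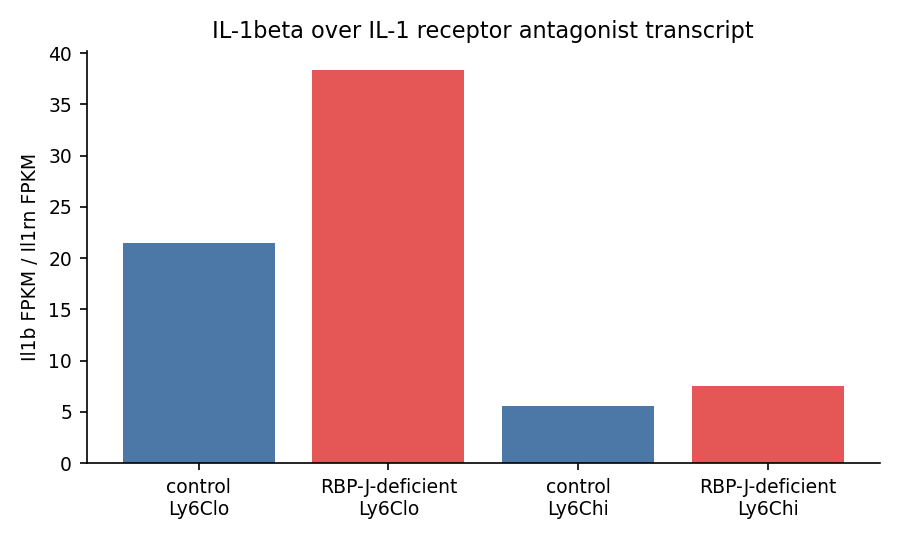
Ratio of *Il1b* FPKM to *Il1rn* FPKM on a linear axis from 0, with 1 bar per library and no error bars because each group is 1 library. The bars stand at 21.5 and 38.3 for control and RBP-J-deficient Ly6Clo cells and at 5.57 and 7.48 for control and RBP-J-deficient Ly6Chi cells.

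*Il18*, at chr9:50554827-50581840 on the plus strand, encodes the other caspase-1 substrate of the set, a cytokine that drives interferon-γ from T and NK cells. Its FPKM was 18.5 in control Ly6Clo, 55.6 in RBP-J-deficient Ly6Clo, 62.3 in control Ly6Chi and 80.1 in RBP-J-deficient Ly6Chi monocytes. The control Ly6Clo library was the lowest by a wide margin, and the other 3 lay within 55.6 to 80.1. Between genotypes the log2 ratio was 1.54 in Ly6Clo and 0.36 in Ly6Chi cells, and 1.22 and 0.24 after subtraction of the GC trend. The Ly6Chi over Ly6Clo log2 ratio was 1.70 among control and 0.52 among RBP-J-deficient cells. *Il18* thus went the opposite way to *Il1b* between the subsets and the same way between the genotypes.

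For *Il18* and *Il15*, both higher in control Ly6Chi than in control Ly6Clo cells, the place of the RBP-J-deficient Ly6Clo library between these controls was set beside that of the Ly6Chi markers. On the linear FPKM scale *Il18* stood at 84.7% and *Il15* at 47.5% of the way from control Ly6Clo to control Ly6Chi. The Ly6Chi markers *Ly6c2*, *Vcan*, *F13a1* and *Chil3* stood between 2.1% and 3.85% of that way, the chemokine receptor gene *Ccr2* at 63.5%, and the 5 markers summed at 12.6%. Measured against the RBP-J-deficient Ly6Chi library in place of the control one, *Il18* stood at 60.2%, *Il15* at 107.9% and the summed markers at 14.6%. The part of Ly6Chi cells in the Ly6Clo library was not tested beyond these values. The part of Ly6Clo cells in the Ly6Chi library was not tested either.

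Promoter windows of the IL-1 family members are printed because RBP-J is a DNA-binding factor. *Il1b* and *Il18* also varied most across the libraries on the log2(FPKM + 1) scale. The *Il1rn* window printed was picked because it holds the only match to the RBP-J core among the cytokines. They are RefSeq windows of GRCm38.p6, 250 bases before to 50 bases after a start site, read 5′ to 3′ on the strand of the gene. Capitals mark a match to GTGGGAA, the core bound by RBP-J, on the other strand. The windows lie at chr2:24336610-24336909 on the plus strand for *Il1rn*, at chr9:50554450-50554749 on the plus strand for *Il18* and at chr2:129371090-129371389 on the minus strand for *Il1b*. The deposited *Il18* locus begins at position 50565368, downstream of the window shown. The deposited *Il1b* locus reaches to position 129375733, which on the minus strand lies upstream of the window shown.
Il1rn: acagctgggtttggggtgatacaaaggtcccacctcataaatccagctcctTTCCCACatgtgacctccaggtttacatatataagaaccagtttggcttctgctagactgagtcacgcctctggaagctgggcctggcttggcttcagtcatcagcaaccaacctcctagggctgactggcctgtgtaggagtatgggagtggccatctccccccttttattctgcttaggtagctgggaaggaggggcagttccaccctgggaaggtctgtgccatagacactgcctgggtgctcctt
Il18: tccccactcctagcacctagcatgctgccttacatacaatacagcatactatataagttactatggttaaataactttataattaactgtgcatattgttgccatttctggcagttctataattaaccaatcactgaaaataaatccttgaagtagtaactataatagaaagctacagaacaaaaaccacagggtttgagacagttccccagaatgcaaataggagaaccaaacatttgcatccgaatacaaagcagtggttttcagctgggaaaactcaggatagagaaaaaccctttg
Il1b: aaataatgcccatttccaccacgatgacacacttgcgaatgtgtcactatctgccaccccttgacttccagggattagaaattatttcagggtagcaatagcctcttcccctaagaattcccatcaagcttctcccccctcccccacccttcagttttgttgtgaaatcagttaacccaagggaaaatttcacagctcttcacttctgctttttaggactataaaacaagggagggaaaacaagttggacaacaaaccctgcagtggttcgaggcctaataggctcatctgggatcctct
Both strands were searched in 11 windows of 8 of the cytokines, *Il10* and *Il15* having no window in the table. GTGGGAA was found in 1 of them, the *Il1rn* window shown, starting 199 bases before the start site. The other *Il1rn* windows searched, beginning at positions 24345041 and 24345121, held neither motif and are not printed. The GTGGGAA motif is found in 6.38% of all 32851 windows of this length. The NF-κB consensus was found in 2 windows, 44 bases before the *Il6* start and 140 bases before the *Tgfb1* start, against 8.46% of all windows. Neither motif was found in the *Il1b*, *Il18*, *Tnf*, *Tnfsf10* or *Tnfsf13b* windows. A match describes letters in a window and is not a binding site, and these libraries carry no measure of binding.

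*Tnf*, at chr17:35199381-35202007 on the minus strand, encodes the founding member of the TNF superfamily. Its FPKM was 6.22 in control Ly6Clo, 4.35 in RBP-J-deficient Ly6Clo, 2.92 in control Ly6Chi and 1.99 in RBP-J-deficient Ly6Chi monocytes. As with *Il1b* both Ly6Clo libraries lay above both Ly6Chi ones, and unlike *Il1b* the RBP-J-deficient library was the lower in each subset. The log2 ratio between genotypes was -0.43 and -0.39 in Ly6Clo and Ly6Chi cells, and -0.34 and -0.33 after subtraction of the GC trend. The Ly6Chi over Ly6Clo log2 ratio was -0.88 among control and -0.84 among RBP-J-deficient cells, nearly the same in both genotypes. *Cd79a*, *Cd22* and *Ms4a1* of the B cells, which also make TNF, went in FPKM from 9.02 to 1.13, 12.9 to 0.563 and 3.27 to 0.0603 between control and RBP-J-deficient Ly6Clo cells. *Cd79b*, the most abundant B cell marker, went the other way, from 41.9 to 100.2 FPKM, and with it the sum of the 6 markers went from 68.0 to 102.1 FPKM. Their part in the *Tnf* value was not tested.

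*Tnfsf13b*, at chr8:10006467-10039072 on the plus strand, encodes BAFF, the survival factor of B cells. It was the third or second most abundant cytokine transcript of each library, with an FPKM of 28.7, 42.9, 24.7 and 34.5. The RBP-J-deficient library was the higher in both subsets, and the subsets lay close together. The genotype log2 ratio was 0.56 in Ly6Clo and 0.46 in Ly6Chi cells, and 0.18 and 0.32 after subtraction of the GC trend. The Ly6Chi over Ly6Clo log2 ratio was -0.21 among control and -0.31 among RBP-J-deficient cells, the latter turning to 0.02 with the GC trend subtracted. *Tnfsf10*, at chr3:27317028-27342427 on the plus strand, encodes TRAIL, a ligand of death receptors. Its FPKM was 0.306, 0.627, 0.852 and 0.795, below the level that counts as expressed here, and no direction is given for it.

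*Il15*, at chr8:82331632-82403222 on the minus strand, was the cytokine whose genotype difference had the most unlike values in the subsets. Its FPKM was 4.93 in control Ly6Clo, 10.1 in RBP-J-deficient Ly6Clo, 15.7 in control Ly6Chi and 9.69 in RBP-J-deficient Ly6Chi monocytes. The controls were the lowest and the highest of the 4 libraries, and the RBP-J-deficient libraries lay between them and close to each other. Between genotypes the log2 ratio was 0.90 in Ly6Clo and -0.65 in Ly6Chi cells, and 0.80 and -0.66 after subtraction of the GC trend. The Ly6Chi over Ly6Clo log2 ratio was 1.5 among control and -0.05 in RBP-J-deficient cells, a value so near 0 that it turned to 0.15 with rescaling and to 0.01 with the GC trend subtracted. *Il15ra*, which presents IL-15 on the surface of the producing cell, had an FPKM of 17.9, 27.6, 20.7 and 24.1, a genotype log2 ratio of 0.60 in Ly6Clo and 0.21 in Ly6Chi cells.

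*Tgfb1*, at chr7:25687002-25705077 on the plus strand, encodes the regulatory cytokine TGF-β1. Its FPKM was 1.02 in control Ly6Clo, 0.0998 in RBP-J-deficient Ly6Clo, 0.517 in control Ly6Chi and 0.171 in RBP-J-deficient Ly6Chi monocytes. Both RBP-J-deficient libraries lay below both control libraries, at levels between percentile 2.31 and 10 of the expressed genes. *Tgfb1* counted as expressed only through the control Ly6Clo library, where it was highest. A lower value in the other libraries was thus favoured by that rule and carries no weight beyond the listed values. It enters the counts and medians of the 7 expressed cytokines on that footing. The log2 ratio between genotypes was -0.87 in Ly6Clo and -0.37 in Ly6Chi cells. Because these levels are near the added 1, the ratio depended on it, and with 0.1 added in its place the values were -2.48 and -1.19. *Il6*, at chr5:30013114-30019981, and *Il10*, at chr1:131019845-131024974, both on the plus strand, encode an acute-phase cytokine and a regulatory cytokine. They are listed at 0 in all 4 libraries. The table holds exact zeros for *Actb* as well, so nothing is read from these zeros beyond that listing.

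Between the subsets, *Il15* and *Il18* were at least 2-fold higher and *Il1b* at least 2-fold lower in Ly6Chi than in Ly6Clo cells of control mice. In RBP-J-deficient mice *Il1b* was again more than 2-fold lower in Ly6Chi cells and no cytokine was 2-fold higher. The control count was therefore 2 of 7 expressed cytokines higher and 1 lower, against 7.75% and 5.21% of expressed genes, and the RBP-J-deficient count 0 higher and 1 lower, against 10.6% and 8.41%. The median log2 ratio of the 7 was -0.21 among control and -0.05 among RBP-J-deficient cells, beside 0 and -0.02 for all expressed genes, and the second median turned positive with rescaling and with the GC trend subtracted. The subset difference was smaller in absolute size in RBP-J-deficient than in control cells for 6 of 8 cytokines and larger for *Il1b* and *Tnfsf13b*. The count was 7 of 8 with rescaling, with *Il1b* alone larger, and 5 of 8 with the GC trend subtracted, with *Il1b*, *Tnf* and *Il1rn* larger. It was also 5 of 8 with 0.1 added in place of 1, with *Il1b*, *Tnfsf13b* and *Tnf* larger, so *Il1b* was the gene with a larger difference in each of these settings. The share of all expressed genes with a smaller subset difference is not given here. Past 2-fold, the shares of all expressed genes above were larger in RBP-J-deficient than in control cells. The subset comparisons use the same 4 libraries as the genotype comparisons, so their values are not independent of those above.

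**Figure D4:**
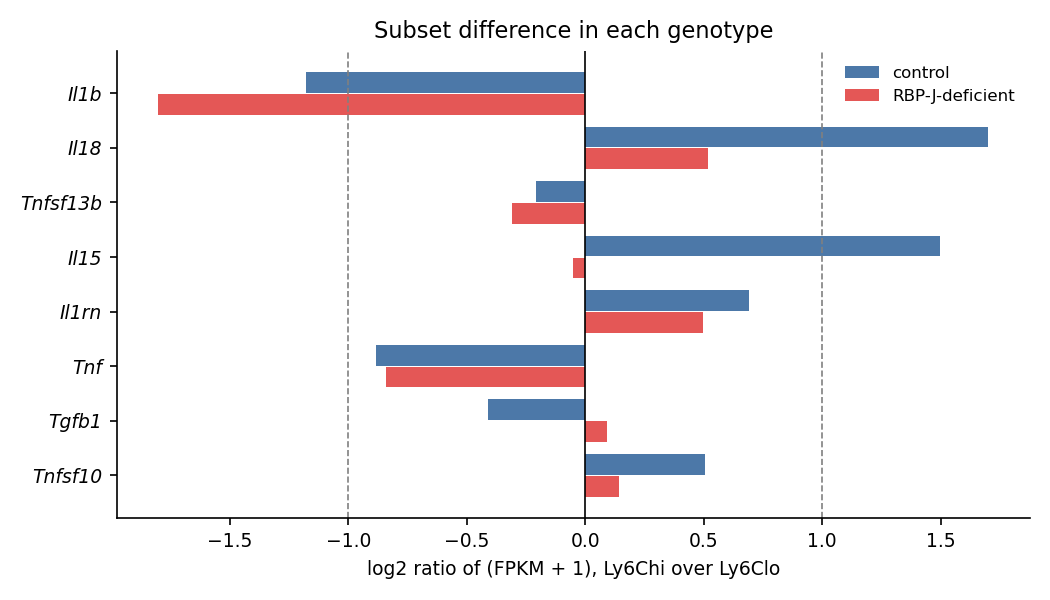
Log2 ratio of (FPKM + 1), Ly6Chi over Ly6Clo, for the 8 cytokines above 0, with blue bars for control and red bars for RBP-J-deficient monocytes; 1 library stands behind each side of a ratio, there are no error bars, and dashed lines mark 2-fold. *Il18* and *Il15* are past the right line in control cells at 1.70 and 1.5, and *Il1b* is past the left line in both genotypes; the RBP-J-deficient bars of *Il15*, *Tgfb1* and *Tnfsf13b* are short and change side when the GC trend is subtracted.

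Genes that receive, activate or limit these cytokines were counted in 4 lists. Of 20 receptor genes 13 were expressed. In Ly6Clo cells 1 stood at least 2-fold above control and 3 at least 2-fold below it without RBP-J, and in Ly6Chi cells none of the 13 was 2-fold apart, against the 8.97% and 11.1% of all expressed genes in Ly6Clo cells and the 2.64% and 4.56% in Ly6Chi cells given above. *Il2rg*, the common γ chain through which IL-15 signals, went from 910.4 to 2079 FPKM in Ly6Clo cells, a log2 ratio of 1.19, and no longer passed 2-fold with rescaling. *Il2rb*, another IL-15 receptor chain of the list, was at 0.130, 0, 0.279 and 0 FPKM, below the expressed level in every library. *Tgfbr1*, the type I receptor of TGF-β, went from 56.6 to 10.8 FPKM, a log2 ratio of -2.29. Both TNF receptor genes were lower in Ly6Clo cells, *Tnfrsf1a* from 102.6 to 39.5 FPKM at -1.35 and *Tnfrsf1b* from 111.6 to 51.9 FPKM at -1.09, the second at -0.88 with the GC trend subtracted. *Tnfrsf1a* went from 99.1 to 49.8 FPKM in Ly6Chi cells, at -0.98, and passed 2-fold there with rescaling, as did *Il10ra*, a receptor chain of IL-10, in Ly6Clo cells, where it stood at -0.86. *Il1r1*, the signalling receptor of IL-1, was listed at 0 in all 4 libraries, and its decoy *Il1r2* had an FPKM of 0.718, 1.0, 5.75 and 6.07. The median log2 ratio of the 13 receptors was -0.19 in Ly6Clo and -0.09 in Ly6Chi cells.

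Of 16 genes that process, release or bind these cytokines 13 were expressed. In each subset 2 were at least 2-fold above control without RBP-J and none was 2-fold below, beside 8.97% and 11.1% of all expressed genes in Ly6Clo and 2.64% and 4.56% in Ly6Chi cells. In Ly6Clo cells *Casp1*, which cuts the precursors of IL-1β and IL-18, went from 243.1 to 585.3 FPKM at a log2 ratio of 1.26, and *Casp4*, the caspase that senses cytosolic lipopolysaccharide, from 41.2 to 121.4 FPKM at 1.54. With the GC trend subtracted these became 0.83 and 1.03, and *Casp1* no longer passed 2-fold with rescaling either. In Ly6Chi cells *Furin*, the convertase that cuts pro-TGF-β1, went from 15.5 to 50.5 FPKM at 1.64, and *Aim2*, a DNA sensor of the inflammasome, from 4.54 to 11.7 FPKM at 1.20. *Il18bp*, the secreted decoy of IL-18, was not 2-fold apart in the main ratios, at 4.09 and 1.70 FPKM in Ly6Clo cells and a log2 ratio of -0.91, passed 2-fold with rescaling and with the GC trend subtracted, and was chosen for mention after its values were seen. The same holds for 3 inflammasome genes of the list. In Ly6Clo and Ly6Chi cells *Nlrp3* was at -0.49 and -0.68, *Gsdmd* at -0.68 and 0.14, and *Pycard* at 0.51 and 0.25. *Nlrp3* had an FPKM of 0.780, 0.268, 1.19 and 0.364 in the 4 libraries. The median of the 13 was 0.17 in Ly6Clo cells, turning to -0.05 with rescaling and to -0.08 with the GC trend subtracted, and 0.25 in Ly6Chi cells.

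All 12 genes of negative feedback and cytokine mRNA decay were expressed. In Ly6Clo cells 2 were at least 2-fold higher and 4 at least 2-fold lower without RBP-J, and in Ly6Chi cells 0 were higher and 3 lower. The shares of all expressed genes were 8.97% and 11.1% in Ly6Clo and 2.64% and 4.56% in Ly6Chi cells. *Socs3*, an inhibitor of cytokine receptor signalling, went from 33.9 to 6.35 FPKM in Ly6Clo cells and from 25.8 to 8.67 FPKM in Ly6Chi cells, log2 ratios of -2.25 and -1.47. *Zfp36*, whose product tristetraprolin binds AU-rich elements and promotes decay of *Tnf* mRNA, went from 202.7 to 53.9 FPKM and from 322.0 to 146.8 FPKM, at -1.89 and -1.13. *Socs1*, a related inhibitor, went from 6.05 to 0.962 FPKM and from 9.92 to 2.68 FPKM, at -1.85 and -1.57. These 3 genes were past 2-fold in both subsets, also with rescaling and with the GC trend subtracted. *Zfp36l1*, a relative of *Zfp36*, was at -1.42 in Ly6Clo cells and -0.11 in Ly6Chi cells. The 2 higher genes in Ly6Clo cells, *Tnfaip3* at 1.31 and *Zfp36l2* at 1.24, fall outside the rule for naming genes and were named after their values were seen, and *Zfp36l2* no longer passed 2-fold with rescaling. The median of the 12 was -0.27 in Ly6Clo and 0.05 in Ly6Chi cells, and the latter was -0.01 with rescaling.

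Of 20 further cytokine genes 10 were expressed and 4, *Il12b*, *Il23a*, *Lta* and *Ifnb1*, were listed at 0 in all libraries. In Ly6Clo cells 1 was at least 2-fold higher and 3 were at least 2-fold lower without RBP-J, and in Ly6Chi cells 1 was higher and 0 were lower, again beside 8.97% and 11.1%, and 2.64% and 4.56%, of all expressed genes. With the GC trend subtracted 2 were higher in Ly6Chi cells, *Ebi3*, the partner subunit of IL-27, being added at 1.21 from 0.97. *Il27*, encoding the p28 subunit of IL-27, went from 35.9 to 5.96 FPKM in Ly6Clo cells, a log2 ratio of -2.41, and from 17.4 to 22.9 FPKM in Ly6Chi cells at 0.37. *Ltb*, encoding lymphotoxin β, a neighbour of *Tnf* in the genome, went from 142.9 to 65.3 FPKM in Ly6Clo cells at -1.12 and from 12.2 to 37.6 FPKM in Ly6Chi cells at 1.55. *Ltb* is also made by B cells, whose markers are given above, and their part in it was not tested. *Il16* was at -1.18 and *Il12a*, at 0.0465 and 1.40 FPKM, at 1.20 in Ly6Clo cells. *Il12a* was at 0 in both Ly6Chi libraries and counted as expressed only through the RBP-J-deficient Ly6Clo library. The rule for an expressed gene thus favoured its place as the 1 higher gene, and that count carries no weight. With the GC trend subtracted *Il12a*, *Il16* and *Ltb* no longer passed 2-fold in Ly6Clo cells, and *Ltb* remained at 1.88 in Ly6Chi cells. The median of the 10 was -0.04 in Ly6Clo cells, turning to 0.30 with the GC trend subtracted, and -0.06 in Ly6Chi cells.

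**Figure D5:**
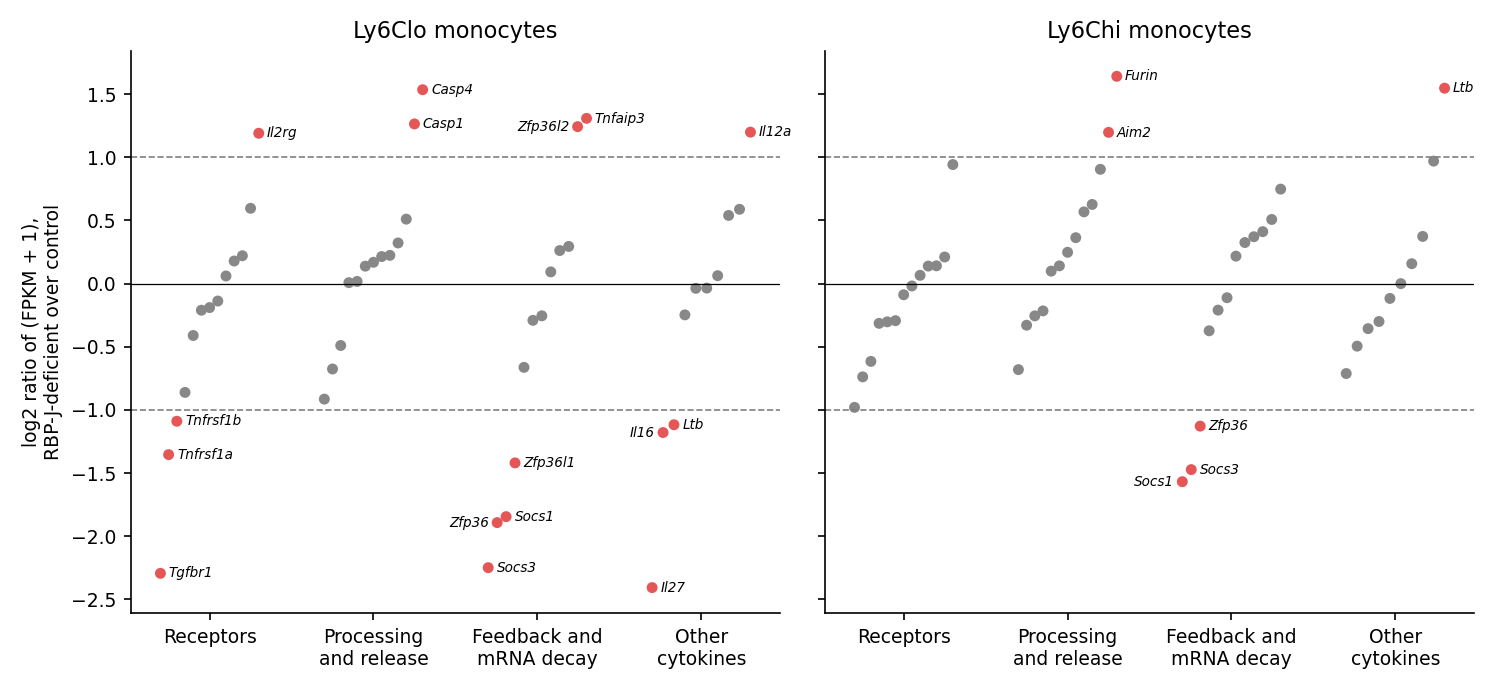
Genotype log2 ratio of (FPKM + 1), RBP-J-deficient to control, for the expressed genes of 4 lists in Ly6Clo (left) and Ly6Chi (right) monocytes; each point is 1 gene, ordered by its ratio within a list, dashed lines mark 2-fold and genes past it are red and named. *Socs1*, *Socs3* and *Zfp36* lie past the lower line in both panels, and *Ltb* lies past the lower line on the left, where subtraction of the GC trend brings it to -0.60, and past the upper line on the right.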

How the data were processed

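Ly6Clo and Ly6Chi blood monocytes of both genotypes were profiled by RNA-seq, 1 library per group. The authors deposited 1 table, whose values are FPKM for each gene in all 6 pairs of the 4 libraries. Per the submitters' processing notes the tools were CASAVA 1.8, TopHat2 2.1.0 and Cufflinks 2.2.1 with the mm10 genome, and the gene annotation is not given in the sources used here. The deposited table also holds a fold change, p-value and q-value for each pair, which compare single libraries and were not used.

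The members and gene lists were chosen with earlier results of these data known. Rows that share a symbol were summed, and the log2 ratio of (FPKM + 1) was computed from the pair of libraries compared, after the scale of the study's own fold thresholds. A gene whose FPKM reached 1 in any library was called expressed. Genes at least 2-fold apart were counted. No test was made and no p-value was computed, since each group is 1 library, and the depth is unknown because low FPKM values show no clear step of a single fragment. All 10 cytokines and *Rbpj* are named, at most 4 genes past 2-fold per list and genotype comparison, those with the largest difference, and receptors beside their cytokine. The Ly6Chi list held 1 further marker, which is not reported here and enters no count or sum. A lowess trend (fraction 0.3, 3 iterations) of the ratio against GC content of the transcript was fitted where the mean FPKM of the pair reached 5, and subtracted as an alternative. GC content was found for 94.9% of expressed genes. The fit was tested on simulated data. Coordinates are 1-based on GRCm38 from GENCODE release M21, and promoter windows are from RefSeq. Python 3.11.15, numpy 2.4.6, pandas 2.3.3, statsmodels 0.14.6 and matplotlib 3.10.9 were used. Alternatives were pseudocounts of 0.1 and 5, rescaling to TPM, median centring, the GC trend, no filter on FPKM and the fold thresholds of 5.7 and 0.2 on the (FPKM + 1) scale.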

Additional observations from a re-analysis of the deposited data

Results flagged for a closer look

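Of the 8 cytokines above 0, 3 had genotype log2 ratios of opposite sign in the monocyte subsets, and each difference rests on 1 library per group and was not tested. The share of all expressed genes with opposite signs is not given here. *Il15* was at 0.90 in Ly6Clo and -0.65 in Ly6Chi cells, and kept both signs under every alternative run. *Il1rn* was at 0.14 in Ly6Clo and -0.058 in Ly6Chi cells, and the first sign turned with rescaling and with the GC trend subtracted. *Tnfsf10*, below an FPKM of 1 in every library, was at 0.32 in Ly6Clo and -0.045 in Ly6Chi cells, and the first sign turned with the GC trend subtracted.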

How the results depend on the processing

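No paired analysis was possible because each group is 1 library, and for the same reason no replicate could be left out. Of 160 alternative values for single cytokines, 146 stayed on the same side of 2-fold with the same sign, and 7 of the other 14 changed sign. With a pseudocount of 0.1, cytokines at least 2-fold higher in RBP-J-deficient Ly6Clo cells numbered 2, with *Il15* added at 1.02, and those at least 2-fold lower numbered 1 in Ly6Clo and 1 in Ly6Chi cells, both *Tgfb1*. In the same setting 2 cytokines, *Il1b* and *Tnf*, were 2-fold lower in Ly6Chi than in Ly6Clo cells in each genotype, and 3 in place of 2, with *Tnfsf10* added at 1.23, were 2-fold higher in control Ly6Chi cells, since the smaller pseudocount widens ratios of low genes. With rescaling to TPM 1 cytokine, *Tgfb1* at -1.12, was 2-fold lower in RBP-J-deficient Ly6Clo cells. *Tgfb1* reached an FPKM of 1 in the control Ly6Clo library alone. At the study's fold thresholds the counts were 0 higher in Ly6Clo cells between genotypes, and 0 higher and 0 lower between the control subsets and 0 lower between the RBP-J-deficient subsets. The median subset ratio of the cytokines in RBP-J-deficient cells, -0.05, reversed to 0.14 with TPM and to 0.0094 with the GC trend subtracted, and the cause was not tested. Without the filter on FPKM, the shares of all genes 2-fold higher and lower were 3.83% and 4.73% in Ly6Clo and 1.13% and 1.95% in Ly6Chi cells between genotypes, and 3.31% and 2.22% in control and 4.51% and 3.59% in RBP-J-deficient cells between subsets, because more genes enter. Of expressed genes past 2-fold, those higher against lower numbered 919 and 1134 in Ly6Clo cells between genotypes and 537 and 1813 with TPM, and 1083 and 861 between RBP-J-deficient subsets and 1582 and 645 with TPM. Depth is unknown, so *Tgfb1* and *Tnfsf10* have values without a counting error.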
